A study of Mus musculus with 14 samples.

Results

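The constitutive promoter contacts were those found in every library of a promoter capture Hi-C (PCHi-C) series on mouse cranial neural crest cells (CNCCs). A contact was a pair of HindIII fragments, a bait that carries a captured promoter and another fragment that was never itself a bait. A pair was a member when both fragments lay on the same chromosome (1 to 19), less than 2 Mb apart between midpoints, with a CHiCAGO score of 5 or more in all 14 libraries. Of 484672 pairs that met the position rules and were listed at least once, 12028 (2.48%) were members. They were selected by their scores, so the number of libraries that list them and the height of their scores are given below as a description and not as a test.

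PCHi-C enriches a Hi-C library for ligation products of annotated promoters, and CHiCAGO scores each pair against the contact frequency anticipated from distance and capture in the same library. CNCCs were isolated by FACS from micro-dissected tissue, with 2 biologically independent replicates for each of 7 conditions. At E10.5 these were the frontonasal process (FNP), the maxillary process (Mx), the mandibular process (Md) and the second pharyngeal arch (PA2) of wild-type embryos, and PA2 of Hoxa2 knockout embryos. The other 2 conditions came from later wild-type embryos, the E12.5 pinna and the E14.5 pinna. The pinna is the outer ear, which forms from PA2. The wild-type cells were RFP-positive cells of Wnt1::Cre;ROSA-RFP embryos, in which the Wnt1 promoter drives Cre in neural crest progenitors. The knockout cells were GFP-positive cells of Hoxa2 EGFP/EGFP embryos, so knockout and wild type also differed in reporter and sorting gate, and these cannot be told apart from the genotype. The E14.5 tissue was dissociated with papain and the rest with trypsin. FNP, Mx and Md form without Hox expression, whereas PA2 and the pinna express Hoxa2, which encodes the homeodomain factor that patterns them. The tables hold no expression values, so the labelled cell type was not checked against marker genes here.

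Contacts between promoters and distal DNA are known to form in several ways. Cohesin extrudes loops that halt where CTCF is bound with its motif facing into the loop. Genes repressed by Polycomb, among them the Hox clusters and many developmental regulators, can gather over long distances, and the replication-dependent histone genes assemble at a shared nuclear body. Enhancers can contact their promoters before, during or without transcription.

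The sequence feature that was examined was the core motif of CTCF, matched exactly on both strands of every contacted fragment in the reference genome. The 6 sites below were chosen among fragments with a single match that several baits contacted as members (5 to 10 baits each), at least 1 Mb from each other. Fragments without the motif were contacted by up to 13 baits. They were chosen with the contacts known and are shown because several promoters met at each of them. Capitals mark the motif, and the flanks are in lower case, read 5′ to 3′ on the strand of the motif.
Hoxc site: ttcacactgCCAGCAGAGGGCaacacgcac
Mpdu1 site: accttctgcCCACTAGAGGGCactaaaacc
Hoxd site: agatcgtgtCCACTAGGTGGCgcgcatggg
chromosome 4 site: ggggagtggCCACCAGGGGGCagagcaggt
Nap1l1 site: tggttcttgCCACTAGAGGGCaagtggtca
Pebp4 site: aaagagttaCCACCAGGGGGCgcgaggtga

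In GRCm38, the Hoxc site was at chr15:103178355-103178384 on the minus strand, between genes, in a fragment contacted by 10 baits, 9 of which the motif faced. They were Hoxc13, Hoxc11, Hoxc10, Hoxc9, Hoxc8, Hoxc6, Hoxc5, Hoxc4 and a noncoding bait within the cluster, and the motif faced away from the bait of Gpr84, a G protein-coupled receptor gene. The adjoining fragment, chr15:103173808-103175875, held no match and was contacted by 9 of these 10 baits, all but that of Gpr84. Its median score was 13.56, against 8.905 for the fragment with the motif. The Hoxd site was at chr2:75590404-75590433 on the minus strand, between genes, and faced all 6 of its baits, which carried Hoxd10, Hoxd9, Hoxd8, Hoxd4 and Hoxd3 and lay 864 to 899 kb away. The Nap1l1 site was at chr10:111966585-111966614 on the minus strand, between genes, and faced all 5 baits, among them Nap1l1, a histone chaperone gene, and Phlda1. The Pebp4 site was at chr14:69861567-69861596 on the plus strand, in an intron of Pebp4, and faced all 5 baits, among them Egr3, an immediate early transcription factor gene. The chromosome 4 site was at chr4:41653516-41653545 on the minus strand, between genes, and faced all 6 baits, at 10.9 to 191 kb. The Mpdu1 site was the exception. It was at chr11:69657382-69657411 on the minus strand, in an intron of Mpdu1, in a gene-dense region, and it faced 2 of the 7 baits that contacted its fragment.

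The number of pairs fell steeply with the number of libraries that listed them and rose again at the end of the range. 247614 pairs were listed in 1 library, 11242 in 7, 6810 in 12 and 6551 in 13, before the 12028 in all 14. Members made up 9.17% to 13.7% of the eligible pairs of a library. The median score of the members was lowest in the knockout PA2 libraries, at 9.32 in replicate 1 and 9.51 in replicate 2, and highest in E14.5 pinna replicate 2, at 12.1. In the other 11 libraries it lay between 9.92 and 11.1.

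**Figure D1:**
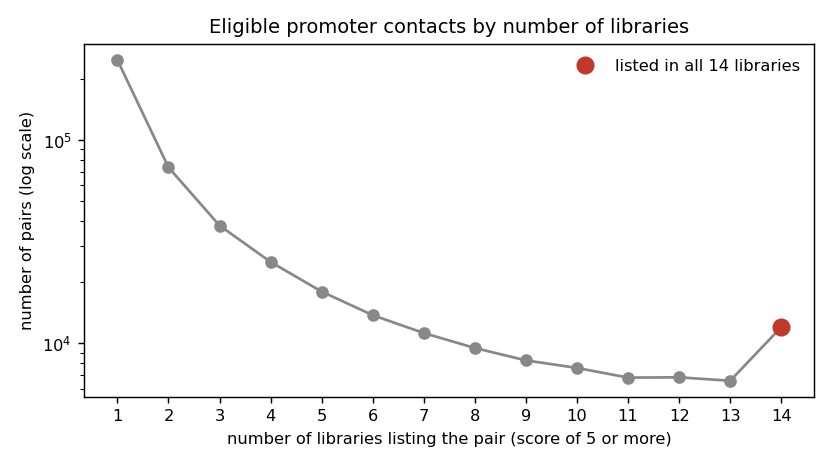
Number of eligible pairs (vertical axis, log scale) against the number of libraries that listed them with a score of 5 or more (horizontal axis). The count falls from 247614 pairs in 1 library to 6551 in 13 and is 12028 in 14 (red).

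**Figure D2:**
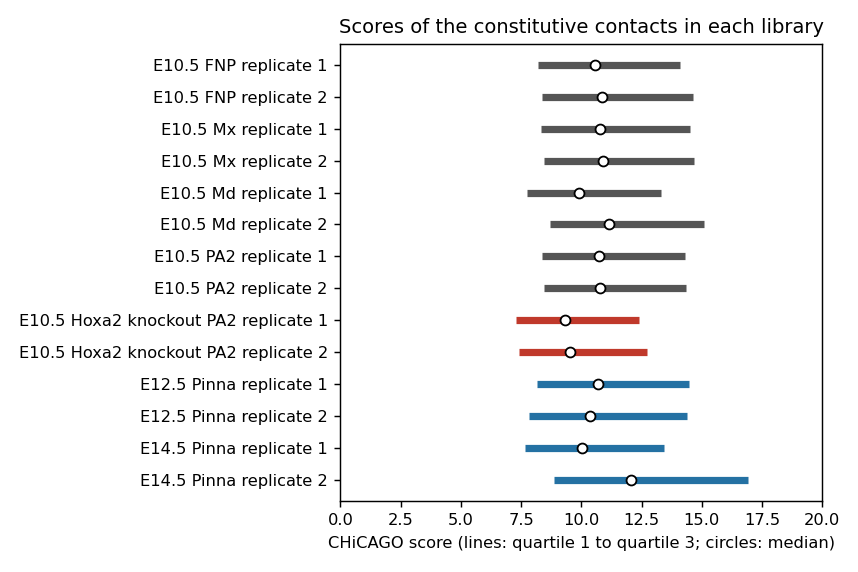
CHiCAGO scores of the constitutive contacts in each library; bars run from the first to the third quartile and circles mark the median. Red marks the knockout PA2 libraries, with medians of 9.32 and 9.51, blue the pinna libraries and grey the wild-type libraries of E10.5.

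The threshold of the rule cut through a continuous range of scores. The lowest of the 14 scores of a member had a median of 6.48 (quartiles 5.58 and 8.25), and 1671 members (13.9%) had 10 or more in every library. Just inside, 564 members had a lowest score under 5.1, and the median over these of their median score was 7.87. Just outside, the 6551 pairs listed in 13 libraries had a corresponding median of 8.12, against 10.46 over all members. The library in which a pair missed the threshold alone was most often knockout PA2 replicate 1 (1128 pairs) or E14.5 pinna replicate 1 (908 pairs) and least often Md replicate 2 (97 pairs). Knockout PA2 replicate 1 was also the library with the fewest eligible pairs, 87797, and E14.5 pinna replicate 2 the one with the most, 131203. Read depths were not at hand, so counting intervals cannot be given and a difference in depth between libraries was not tested.

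A pair of libraries stood apart in pairs that the rule leaves out. The file names of Md replicate 1 and E12.5 pinna replicate 2 call them merged, and 46.5% and 62.7% of their listed pairs joined different chromosomes, against 2.64% to 5.61% in the other 12. Without both libraries, 13335 pairs on 3455 baits were found in all the others.

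Members were closer to their promoters than other contacts. Their median distance was 244 kb (quartiles 134 and 420 kb), against 427 kb over all eligible pairs and 542 kb over those listed in 1 library. The share of eligible pairs that were members fell with distance, from 5.68% under 100 kb to 2.90% between 200 and 500 kb and 0.584% between 1 and 2 Mb. Their scores ran the other way. The median over members of the mean score was 9.13 under 100 kb, 10.8 between 200 and 500 kb and 17.1 between 1 and 2 Mb, where 539 members lay. CHiCAGO weights distance, so scores at different distances are not measures of the same contact frequency. The distance also depends on the score asked for. With a score of 10 or more in every library the median distance was 313 kb.

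**Figure D3:**
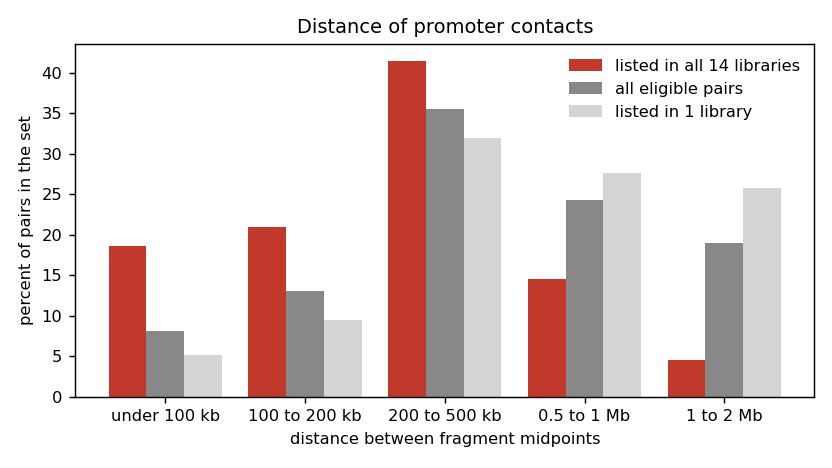
Percent of pairs (vertical axis) in bins of distance between fragment midpoints (horizontal axis) for pairs listed in all 14 libraries, for all eligible pairs and for pairs listed in 1 library. Of the constitutive contacts, 18.6% were under 100 kb and 4.48% between 1 and 2 Mb, against 5.105% and 25.8% of the pairs listed in 1 library.

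The contacted fragments lay in no annotated gene for 4383 members (36.4%), against 34.9% of all eligible pairs. They lay in a protein-coding gene other than that of the bait for 5863 members (48.7%, against 54.5%) and within the gene of the bait itself for 772 (6.42%, against 3.02%). A protein-coding start site lay in the contacted fragment of 1036 members (8.61%, against 8.62%), although none of these fragments was a bait. For baits with protein-coding start sites on 1 strand, 45.1% of 8914 members lay upstream of the promoter, against 48.2% of the eligible pairs.

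Members came in runs. The 12028 pairs formed 7052 runs of adjacent HindIII fragments contacted by the same bait, 1.71 fragments per run, so neighbouring members are not separate observations. They used 9247 contacted fragments, of which 7420 were contacted by 1 bait and 198 by 4 or more.

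The CTCF core motif was more frequent in contacted fragments of pairs that more libraries listed, and more often turned toward the bait. This order held between groups of 1, 2 to 6, 7 to 13 and 14 libraries, but not at every single step. The motif lay in the contacted fragment of 1026 members (8.53%), against 3.16% of the pairs listed in 1 library, 4.48% in 2 to 6 and 5.89% in 7 to 13. Over distinct fragments, 8.28% of 9247 held it. Of all 769706 HindIII fragments of these chromosomes, 1.53% did. The density was 23.5 motifs per Mb of the members' fragments and 4.97 per Mb of all. The share was higher among members at each fragment length. Between 2 and 4 kb it was 7.67% of the members' fragments and 1.32% of all fragments, and over 8 kb it was 19.9% and 6.31%. The GC content of the contacted fragments moved with it, from 43.0% for the pairs listed in 1 library to 45.4% for members, and its part was not tested.

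Of the 992 members whose fragment held the motif on 1 strand only, the motif faced the bait in 836 (84.3%). The share was 64.3% of 7637 pairs listed in 1 library, 70.6% of 7347 in 2 to 6 and 76.6% of 3252 in 7 to 13. Counting each fragment and side once, it was 83.0% of 748 for members and 62.9% of 4689 for pairs listed in 1 library. It was lowest for members under 100 kb (72.7% of 143) and highest between 0.5 and 1 Mb (92.0% of 150), and at each distance it was above that of pairs listed in 1 library, which ranged from 61.8% to 65.9%. In 129 members the bait also held the motif on 1 strand, and both motifs faced each other in 78 of these, pointed the same way in 46 and faced away from each other in 5. For pairs listed in 1 library the corresponding counts were 190, 260 and 92 of 542. The motif was absent from the fragments of the other 11002 members, including the 10 with the highest lowest score. An absent match says only that these letters did not occur in the fragment, and binding of CTCF was not measured in these files.

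**Figure D4:**
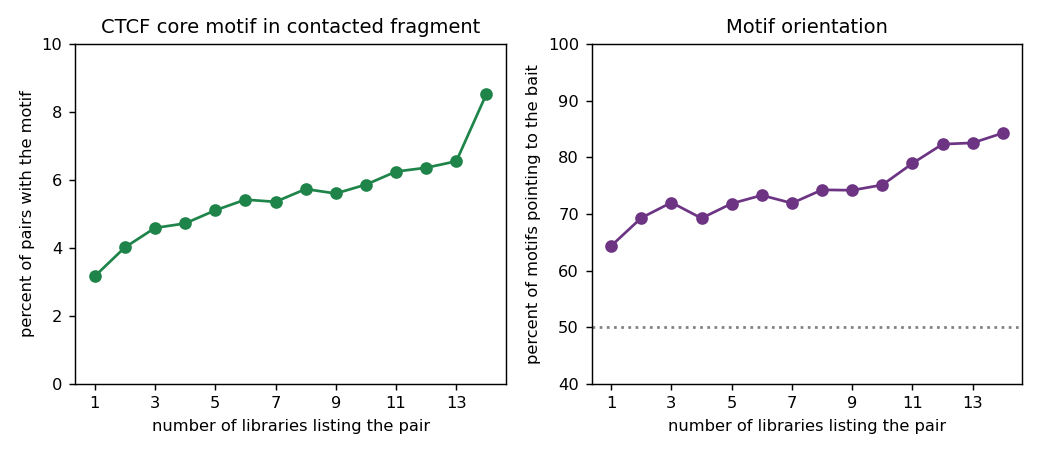
Percent of pairs whose contacted fragment held the CTCF core motif (left) and percent of motifs on 1 strand that pointed to the bait (right), against the number of libraries that listed the pair. Both are highest at 14 libraries, at 8.53% and 84.3%; the dotted line marks 50%.

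A minority of promoters carried these contacts, and they were shared unevenly. Members were found on 3209 of 21013 baits with an eligible pair (15.3%). 1239 of the baits had 1 member, the median was 2, and 265 baits had 10 or more. The 321 baits with the most members (10% of those with any) held 37.8% of all members. Of the 3209 baits, 2729 (85.0%) carried a protein-coding start site, against 80.0% of all baits with eligible pairs, 426 carried only start sites of other gene types and 54 carried none. Baits with many listed pairs had members more often. The share with a member was 0.875% of the baits with 1 to 9 eligible pairs and 67.0% of those with 60 or more. The CTCF core motif lay in 10.9% of the baits with a member and in 5.14% of the other baits, and the median bait lengths were 6351 and 5703 bp. Among the 265 baits with 10 or more members the share was 9.43% and the median length 5631 bp. Baits with a member and the other baits also differed in GC content (47.9% and 46.2%) and in median number of eligible pairs (43 and 14). The part of these in the motif share was not tested.

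The 10 baits with the most members included developmental regulators and genes of general cell functions. The bait with the most, at chr12:21285222-21291864, carries the start sites of Cpsf3, which encodes the endonuclease that cleaves pre-mRNA 3′ ends, and of Itgb1bp1, which encodes an integrin-binding protein. It had 78 members, 53.8% of its eligible pairs, between 6.92 and 212 kb on both sides. The median score over its members varied widely, from 9.28 in E12.5 pinna replicate 1 to 30.0 in PA2 replicate 2. In all 4 wild-type tissues of E10.5 it was higher in replicate 2 (26.1 to 30.0) than in replicate 1 (13.1 to 17.6). The E12.5 pinna, at 9.28 and 10.95, lay below the other 12 libraries.

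Jun, which encodes a subunit of the AP-1 transcription factor, had 31 members, all at higher coordinates at 738 to 880 kb, in and around Fggy, a carbohydrate kinase gene. Its median score was 13.4 to 21.0 over the 14 libraries, with a median of 15.2. Zfp36l2, which encodes an RNA-binding protein that promotes mRNA decay, had 32 members at 143 to 324 kb, none of them in a protein-coding gene. Its median score was 9.83 to 15.7. Lix1 had 38 members, all at higher coordinates in and around Lnpep, a peptidase gene, with median scores of 10.4 to 16.3. The antisense RNA gene 2810442N19Rik had 48 members, at 157 to 329 kb and within or near Dnm3, a dynamin gene, with median scores of 10.9 to 17.5. Gm25273 (45 members) and Gm22371 (33 members), both annotated as small nucleolar RNA genes, completed the list with the 3 baits described next.

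Cdon, which encodes a Hedgehog co-receptor of the immunoglobulin superfamily, had 35 members at 9.94 to 149 kb, 30 of them at lower coordinates. Its median score was 16.5 to 21.2 in the 4 pinna libraries and under 13 in all 10 libraries of E10.5, so that these ranges did not overlap. Within E10.5 it was 11.9 or more in FNP and Mx, 8.52 and 7.98 in Md, and 8.61 to 11.2 over the wild-type and knockout PA2 libraries. The bait with the histone genes Hist1h2af, Hist1h3g and Hist1h4h had 48 members at up to 1744 kb. Its median score was 27.1 to 33.02 in the 8 wild-type libraries of E10.5, 16.4 and 18.2 in the knockout, and 15.7 to 22.2 in the pinna, so that the wild-type libraries of E10.5 lay above all others. The histone genes are near-identical copies, so reads may be placed on the wrong copy and their values are uncertain. Hoxc5, a homeodomain factor gene, had 45 members, with median scores of 9.65 in Md replicate 1 to 13.9 in Md replicate 2, which spans the range of all 14 libraries.

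The share of genes with a constitutive contact differed between gene lists, which were drawn up with earlier results of these data known. Over all 18095 protein-coding genes with a bait that had eligible pairs, 3155 (17.4%) had at least 1 member. The share was 29 of 37 Hox genes (78.4%), 39 of 63 craniofacial transcription factors (61.9%), 29 of 63 signalling ligands, receptors and antagonists (46.0%) and 10 of 28 neural and pigment fate factors (35.7%). It was 9 of 34 ubiquitously expressed control genes (26.5%), 7 of 38 chromatin and CTCF-cohesin genes (18.4%) and 7 of 53 cell adhesion and axon guidance genes (13.2%). The lists also differed in how many pairs their genes had at all, with medians of 63 eligible pairs for the Hox genes, 61 for the craniofacial factors, 18 for the control genes and 18 over all genes. Of all baits with 60 or more eligible pairs 67.0% had a member, and of those with 10 to 29 pairs 8.64%. The part of the number of pairs in the shares was not tested.

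All 9 Hoxc genes with a bait had members, as did 10 of 11 Hoxa genes (all but Hoxa13), 7 of 8 Hoxd genes (all but Hoxd1) and 3 of 9 Hoxb genes. Hox genes encode the homeodomain factors that give segments their identity along the body axis. The clusters differed in reach. The 121 members of Hoxc had a median distance of 146 kb, none over 500 kb. The 70 members of Hoxa had a median of 1002 kb, 68 of them at lower coordinates and 48 over 500 kb, and the 79 members of Hoxd a median of 700 kb. The CTCF core motif lay in the contacted fragment of none of the 70 Hoxa members, which used 19 fragments. It lay in that of 8 of 121 Hoxc members (51 fragments), 10 of 79 Hoxd members (27 fragments) and 4 of 20 Hoxb members (16 fragments). The share over all members was 8.53%. These pairs share fragments. All 8 Hoxc pairs used the fragment of the Hoxc site, and 6 of the 10 Hoxd pairs used that of the Hoxd site. The counts are therefore not read as a difference between clusters.

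The fragments contacted by the most baits were 2 neighbours at chr6:51173834-51180766 and chr6:51180767-51183201, in no protein-coding gene. Each was contacted by 13 baits at 831 to 1129 kb, among them Hoxa2, Hoxa4, Hoxa5, Hoxa6, Hoxa9, Hoxa10, Hoxa11, a bait shared by Hoxa3 and Hoxa7, the noncoding Hotairm1, and Skap2, an adaptor protein gene beside the cluster. Histone genes came next. A fragment at chr13:21784674-21785566 was contacted by 12 baits and another at chr13:23584372-23586244 by 11, nearly all of them with Hist1 genes. A fragment at chr11:100272152-100282159 was contacted by 8 baits of the keratin clusters, among them Krt10, Krt12 and Krt20, at 696 to 899 kb.

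Of the craniofacial transcription factor genes, Tbx2 had the most members on a bait (23, all at lower coordinates at 192 to 459 kb, several in Bcas3), followed by Dlx5 (16, at 861 to 1027 kb in and around Dync1i1). Tbx2 encodes a T-box repressor and Dlx5 a homeodomain factor that patterns the lower jaw. Among signalling genes, Fgfr1, a fibroblast growth factor receptor gene, had 17 members at 153 to 250 kb, and Dkk1, a secreted Wnt antagonist gene, had 10. Among neural fate genes, Sox2 had 13 and En1, a homeobox gene of the midbrain and hindbrain, had 11 that formed 1 run of adjacent fragments at 562 to 586 kb. Ntn1, which encodes the axon guidance cue netrin 1, had 21 members at 330 to 427 kb, and Slit3, a guidance ligand gene, had 7. Of the control genes, the bait shared by Chmp2a, Trim28 and Ube2m had 11 and Tubb5, a tubulin gene, had 5. Ep300 and Bmi1, a histone acetyltransferase gene and a Polycomb gene, had 3 each.

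Scores from 33 to 37 were not resolved by the files. Over members, 979 scores lay between 29 and 31, 805 between 31 and 33, 1447 between 33 and 35, and 158 between 37 and 39. Among scores from 33 to 37, 31.1% recurred exactly in another library of the same pair, against 0.663% of those from 20 to 31 and none of the 941 scores of 37 or more. 809 members (6.73%) had at least 1 score of 33 or more, and 15 had such scores in all libraries. Differences among scores from 33 to 37 are therefore not read as differences in contact. Scores of 37 or more did not repeat, but they lie beyond this range, so several differences that rest on them are also given with scores capped at 33. The 10 members with the highest lowest score were among the 15 with 33 or more in all libraries, a choice within the unresolved range. They were 4 pairs that joined Hoxa4, Hoxa5, Hoxa6 and 5730596B20Rik, a gene within the cluster, to chr6:51180767-51183201, 1 more of 5730596B20Rik to the neighbouring fragment, 2 of En1, 1 of Jun to a fragment in Fggy, 1 of a histone-region bait with no annotated start site to a fragment with Hist1h4i, and 1 of Amy2a1, an amylase gene whose bait fragment spans chr3:113374664-113533162. The amylase genes are also near-identical copies. The pair of Jun at 821 kb had 33.5 to 36.8 in 12 libraries, 46.8 in FNP replicate 2 and 42.7 in Mx replicate 1.

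The longest member joined Khdrbs3, an RNA-binding protein gene on chromosome 15, to a fragment in no gene at 1.99 Mb, close to the limit of the rule. Its scores were 12.7 and 17.0 in FNP, 14.9 and 23.5 in Mx, 12.1 and 23.3 in Md, 16.6 and 16.6 in PA2, 22.6 and 17.8 in knockout PA2, 21.6 and 23.9 in the E12.5 pinna, and 21.0 and 27.5 in the E14.5 pinna. The ranges of FNP and of the E14.5 pinna did not overlap, but replicates of Mx and Md differed by as much. The other 9 joined Fam19a4, a secreted chemokine-like protein gene, to a fragment at 1.97 Mb, Kctd16, which encodes an auxiliary subunit of GABA-B receptors, to fragments in Lars at 1.96 to 1.97 Mb (3 pairs), and baits of the histone gene region on chromosome 13 to fragments of that region at 1.97 Mb (5 pairs). These baits carried histone genes, except for a bait with no annotated start site.

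Over the 7 conditions, the means of the members' scores varied by more than replicate error alone would give. On the log2 scale, the median SD of the 7 condition means was 0.27, where the median SD between single replicates was 0.28, which alone would give condition means an SD of 0.20. For 74.5% of members the SD of the condition means was above that given by their own replicates. The ratio of the highest to the lowest condition mean (geometric) had a median of 1.69 (quartiles 1.49 and 1.98). It was under 1.5 for 25.8% of members, under 2 for 76.0%, and 3 or more for 323 members (2.69%). Replicate error alone would also put part of the members above the SD given by their replicates, and the ratio above 1. Those levels were not computed. Since the rule asks for 5 or more everywhere, it removes pairs that fall low in any condition, so these values describe the members and not promoter contacts in general. Ranked over members, scores of 2 libraries correlated with a Spearman's rho of 0.67 to 0.78 (median 0.69) for the 7 pairs of replicates and 0.38 to 0.75 (median 0.55) for the 84 pairs of different conditions. These are correlations across pairs that share baits and fragments, and no test is attached to them.

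The knockout PA2 had the lowest condition mean for 4279 members (35.6%) and the E14.5 pinna the highest for 2960 (24.6%). This order changed with the score level of whole libraries. With each library multiplied to a common member median, knockout PA2 was lowest for 2424 members (20.2%) and highest for 2784 (23.1%), and the E14.5 pinna was lowest for 2413 (20.1%) and highest for 2229 (18.5%).

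Differences between conditions were tested with limma on asinh of the score, which at these scores is close to a natural logarithm, over all 68737 pairs that 7 or more libraries listed. P values were adjusted over all of these pairs by the Benjamini-Hochberg method, with a threshold of 0.05. In the F test for any difference among the 7 conditions, 326 members (2.71%) passed, where 5.21% of all tested pairs did. The rule used these same scores and bounds them from below, so the smaller share is not a result about the members. The 326 pairs lay on 203 baits, and 136 of them had a score of 33 or more somewhere. Without knockout PA2 replicate 1 the number was 188. Without the trend of the spread with the mean score, limma called 4 members.

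Of the members called in the F test, the contact of Hoxa2 had the widest range of condition means as deposited. The contacted fragment was chr6:51171572-51173833, in no protein-coding gene and 992 kb from the bait. The scores were 15.2 and 18.1 in FNP, 11.7 and 19.2 in Mx, 12.7 and 11.1 in Md, 84.2 and 107.6 in PA2, 34.3 and 33.9 in knockout PA2, 34.3 and 154.9 in the E12.5 pinna, and 34.3 and 34.3 in the E14.5 pinna. All PA2 and pinna libraries, with or without Hoxa2, were above all FNP, Mx and Md libraries, without overlap. According to the paper, EGFP takes the place of Hoxa2 in the knockout allele. The Hoxa2 bait therefore lies at the edited gene in the knockout libraries. Whether the edit alters capture or mapping of this bait was not tested, so its knockout scores are uncertain. The F test, which is for any difference among the 7 conditions and not for this pattern, gave an adjusted p of 0.0212 (limma), and the contrast of PA2 with FNP, Mx and Md missed the threshold (adjusted p = 0.0611, limma). The rank rests on the PA2 scores, which lie beyond the unresolved range from 33 to 37, and the knockout scores and 3 of the 4 pinna scores lie in it. With scores capped at 33, a setting chosen after seeing the data, the F test stayed past the threshold (adjusted p = 0.00191). With scores capped at 20 the call was lost (adjusted p = 0.114, limma). The call was lost under 10 of 23 alternatives, among them those without either FNP, Md or PA2 library or Mx replicate 1 (adjusted p = 0.0531 to 0.102, limma).

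Among the 5 called members with the widest ranges were also those of the bait of Hist1h2ai and Hist1h2bl with 2 adjoining fragments at 1.87 Mb, lowest in the knockout (12.9 and 5.27 for the first fragment) and highest in the E14.5 pinna (50.1 and 76.7), and of Gm10748, a gene model near Zfhx4, with a fragment at 1.81 Mb. All 3 lost the call without E14.5 pinna replicate 2 (adjusted p = 0.0536 to 0.0675, limma), and both histone pairs also without knockout replicate 2 (0.0762 and 0.115). The first histone pair also lost it without either Mx library or Md replicate 1 (0.0534 to 0.0545), and the second without knockout replicate 1 or E14.5 pinna replicate 1 (0.1098 and 0.0924). With scores capped at 33 all 3 stayed past the threshold (adjusted p = 0.0176 to 0.0419, limma). With scores capped at 20 the first histone pair and that of Gm10748 lost the call (0.110 and 0.0953).

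**Figure D5:**
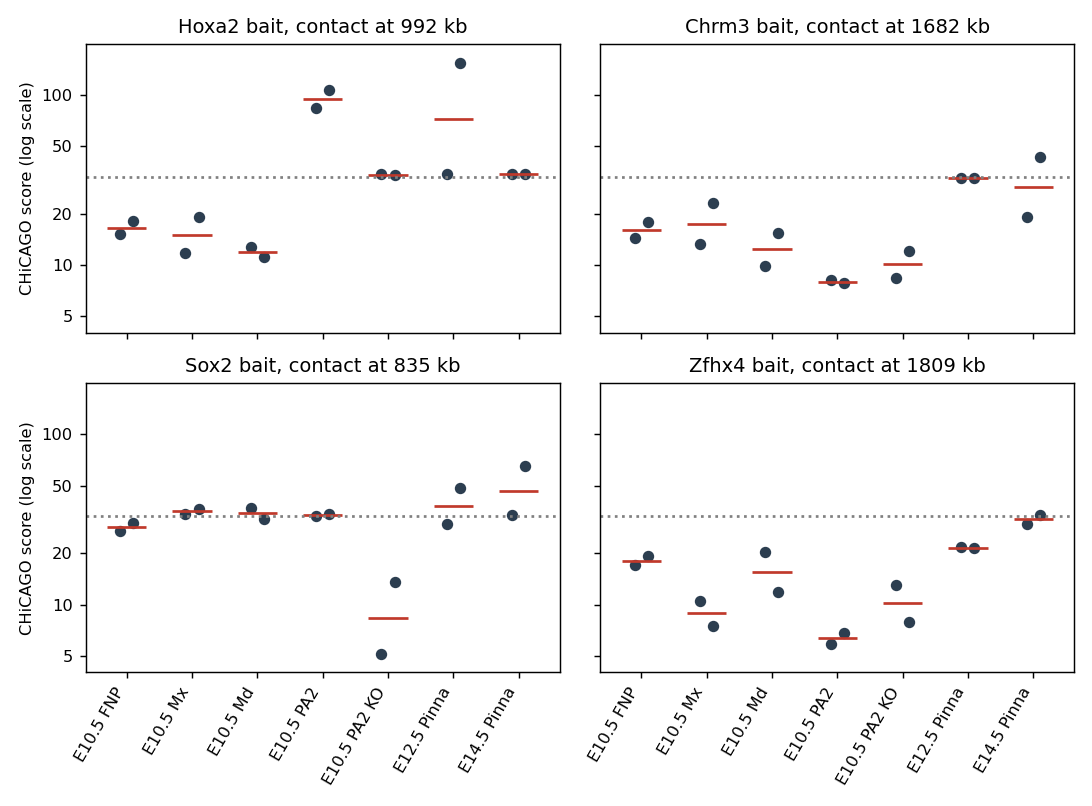
CHiCAGO scores (vertical axis, log scale) of 4 constitutive contacts in the 7 conditions; points are the 2 replicates, red lines their geometric mean, and the dotted line marks 33, the lower end of the range in which scores repeated. Scores of the Hoxa2 contact were higher in PA2, knockout PA2 and pinna than in FNP, Mx and Md, those of Chrm3 were 8.14 and 7.82 in PA2 and 32.6 and 32.7 in the E12.5 pinna, those of Sox2 were 5.11 and 13.6 in the knockout, and those of Zfhx4 were 5.90 and 6.78 in PA2.

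Between knockout and wild-type PA2, 198 members (1.65%) passed the threshold, 4 higher and 194 lower in the knockout, where 3.2% of all tested pairs passed. The median difference of asinh(score) was -0.13 over members and -0.18 over all tested pairs, and pairs that a library did not list entered the fit at 0. Over the 237058 pairs that 2 or more libraries listed, the median was 0, and 5772 pairs were called higher and 3469 lower in the knockout, so the direction over all pairs depended on this filter. After scaling to a common member median, 148 members passed, 35 higher and 113 lower, and the median over members was 0.01. The number was 88 or 73 without PA2 replicate 1 or 2, 75 or 124 without knockout replicate 1 or 2, and 305 or 309 without E14.5 pinna replicate 1 or 2. It was 3 without the trend.

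The 5 called members with the largest differences were all lower in the knockout. The contact of Sox2, a transcription factor of neural progenitors, with a fragment at 835 kb in no gene had 33.4 and 34.2 in PA2 and 5.11 and 13.6 in the knockout, and 26.9 or more in all other libraries. The difference was -1.39 ± 0.29 (SE, n = 2 and 2; adjusted p = 0.0266, limma), and -0.91 without knockout replicate 1 (adjusted p = 0.141, limma). With scores capped at 20 it was -0.87 (adjusted p = 0.0651, limma). A Kctd16 bait with a fragment in Lars at 1.95 Mb had 24.5 and 25.2 in PA2 and 5.13 and 7.68 in the knockout, a difference of -1.37 ± 0.26 (SE; adjusted p = 0.0133, limma). All other libraries had 17.95 or more. Hoxa9 with chr6:51180767-51183201 had 85.2 and 92.2 in PA2 and 17.1 and 26.3 in the knockout, a difference of -1.43 ± 0.24 (SE; adjusted p = 0.00524, limma). With scores capped at 33 its difference was -0.44, and with scores capped at 20 it was -0.08 (adjusted p = 0.449, limma). Both others lay in the histone gene region of chromosome 13. They joined Hist1h3e and a bait with no annotated start site to fragments at 1.52 and 1.77 Mb. The differences were -1.61 ± 0.30 and -1.39 ± 0.25 (SE; adjusted p = 0.0141 and 0.00999, limma). The PA2 scores of the Hist1h3e pair were 43.4 and 81.8, and capped at 33 its difference was -1.02. Capped at 20 it was -0.52 (adjusted p = 0.0752, limma). For the bait with no start site the difference capped at 33 was -1.32. Each of the 5 kept its direction in all 24 alternatives and lost significance in 3 to 8 of them. All 5 lost it without PA2 replicate 2 (adjusted p = 0.0572 to 0.142, limma), and all but the pair of the bait with no start site lost it without knockout replicate 1 (0.0553 to 0.141). That pair lost it without knockout replicate 2 (0.0602), and those of Sox2 and Kctd16 also without PA2 replicate 1 (0.132 and 0.0842).

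By gene list, called members were all lower in the knockout, as were 2082 of the 2200 calls over all tested pairs, of which 3.2% passed. They were 11 of 290 members on Hox baits (7 of them of Hoxa), 6 of 244 on baits of craniofacial transcription factors, 2 of 122 of signalling genes, 3 of 49 of neural and pigment genes, 1 of 39 of adhesion and guidance genes, and none of 35 of the control genes or 11 of the chromatin genes.

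Between the pinna (mean of E12.5 and E14.5) and PA2, which share a lineage at different stages, 100 members (0.831%) passed, 28 higher and 72 lower in the pinna, where 1.48% of all tested pairs passed. The split was 52 and 96 after scaling to a common member median, 77 and 79 without E14.5 pinna replicate 1, and 24 and 29 with only the groups compared, so the excess of lower calls depended on these choices. The median difference was 0.00076 over members and -0.07 over all tested pairs. The number was 21 or 26 without PA2 replicate 1 or 2, 54 or 55 without knockout replicate 1 or 2, 162 without E12.5 pinna replicate 1, and 156 or 202 without E14.5 pinna replicate 1 or 2. It was 2 without the trend.

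Of the 5 called members with the largest differences, 4 were higher in the pinna. Zfhx4, a zinc finger homeobox gene, contacted a fragment at 1.81 Mb in no gene with scores of 5.90 and 6.78 in PA2, 21.9 and 21.4 in the E12.5 pinna and 29.9 and 33.5 in the E14.5 pinna. In FNP it had 17.0 and 19.4, in Mx under 11 in replicate 1 and 7.51 in replicate 2, in Md 20.4 and 11.9, and in knockout PA2 13.1 and 7.86. The difference between pinna and PA2 was 1.41 ± 0.19 (SE, n = 4 and 2; adjusted p = 0.00723, limma). A second fragment of Zfhx4, at 1.79 Mb, and a fragment contacted by the nearby Gm10748 differed in the same direction, by 1.23 ± 0.21 and 1.68 ± 0.26 (SE; adjusted p = 0.0222 and 0.0156, limma). With scores capped at 33 these differences were 1.16 and 1.37. Chrm3, a muscarinic receptor gene, with a fragment in Ryr2, a calcium channel gene, at 1.68 Mb had 8.14 and 7.82 in PA2, 32.6 and 32.7 in the E12.5 pinna, and 19.3 and 43.6 in the E14.5 pinna, a difference of 1.35 ± 0.24 (SE; adjusted p = 0.0272, limma). With scores capped at 33 the difference of Chrm3 was 1.28. Its contacted fragment holds the CTCF core motif. These 4 kept their direction in all 24 alternatives and lost significance in 1 to 4 of them. Without PA2 replicate 1 the call was lost for Chrm3 and both fragments of Zfhx4 (adjusted p = 0.0521 to 0.137, limma), and without PA2 replicate 2 for Gm10748, Chrm3 and the second fragment of Zfhx4 (0.0764 to 0.134).

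Over all tested pairs 1.48% passed this comparison, and 5.21% passed the F test. Of the 1014 calls 797 were lower in the pinna, but over the pairs that 2 or more libraries listed 5829 were called higher and 3304 lower, and without PA2 replicate 1 or 2 the calls were 469 higher and 203 lower or 491 higher and 217 lower. Of the members of Cdon, 3 of 35 passed, all higher in the pinna, and 9 of 35 passed the F test. Of the Hist1h2af, Hist1h3g and Hist1h4h bait, 6 of 48 passed, all lower in the pinna. By gene list, 9 of 290 members on Hox baits, 3 of 244 of craniofacial transcription factors and 5 of 49 of neural and pigment genes passed, all lower in the pinna, and none of 122 members of signalling genes, 39 of adhesion and guidance genes, 35 of control genes or 11 of chromatin genes.

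Between PA2 and the mean of the Hox-negative FNP, Mx and Md, 1 member passed (0.00831%), where 0.106% of all tested pairs passed. It joined the bait of 5730596B20Rik, an annotated gene within the Hoxa cluster, to chr6:51171572-51173833, the fragment also contacted by Hoxa2, at 1004 kb. Its scores were 20.5 and 17.3 in FNP, 21.0 and 19.4 in Mx, 15.6 and 16.6 in Md, and 61.4 and 34.2 in PA2. They were 31.7 and 26.1 in knockout PA2 and 33.3 to 62.8 in the pinna, so that the Hox-negative libraries lay below all others. The difference was 0.92 ± 0.13 (SE, n = 2 and 6; adjusted p = 0.0357, limma). It was 0.59 with scores capped at 33 and 0.10 with scores capped at 20. The call lost significance in 17 of 24 alternatives without changing direction. For the same fragment, the difference of Hoxa2 was 1.89 ± 0.30 (SE; adjusted p = 0.0611, limma) and missed the threshold. The count was 0 without either FNP library, either Mx library, Md replicate 1, knockout replicate 1 or either E14.5 pinna library, 5 without PA2 replicate 1 or either E12.5 pinna library, and 2 without PA2 replicate 2. It was 0 without the trend and with only the groups compared. An unadjusted p under 0.05 was found for 475 of 12028 members and 4557 of 68737 tested pairs (shares that the rule bears on, as in the F test).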

How the data were processed

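PCHi-C was measured in 14 libraries, 2 for each of 7 conditions. The authors mapped reads to GRCm38/mm10 with HiCUP and called interactions with CHiCAGO. They deposited, for each library, pairs of HindIII fragments with a CHiCAGO score, which is on a natural log scale (minus the log of a weighted p-value), with no score below 5. A pair that a library did not list was given 0. Depth was not at hand. All 211687 fragments of the eligible pairs matched the HindIII digest of GRCm38. Start sites came from GENCODE, and a bait was named by the start sites within it.

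The members, gene lists and alternatives were chosen with earlier results of these data known. limma 3.58.1 (R 4.3.3; lmFit, eBayes with a trend, Benjamini-Hochberg) was fitted on asinh(score) over all 14 libraries, with the 7 conditions as groups and no covariate, for pairs listed in at least 7 libraries. The script was tested on simulated data. Named were the 10 members with the highest lowest score, the 10 longest, the 5 called members with the largest difference in each comparison, the 10 baits with the most members and 2 baits for each gene list. A few of these are not reported here. Other genes and fragments were chosen after their values were seen. Conditions, baits and the CTCF core motif (12 letters, exact, both strands) were read from the labels, the files and the reference. Alternatives were another filter on low scores (2 or 10 libraries), scaling to a common member median, a cap at 20 or, chosen after seeing the data, 33, log2(score + 1), no trend, a replicate block, the groups compared alone, each library left out and, also chosen after seeing the data, both merged libraries left out.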

Additional observations from a re-analysis of the deposited data

How the results depend on the processing

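Depth is unknown, scores below 5 are absent and scores from 33 to 37 are unresolved, which limits every comparison of members. The number of members was 1671 with a score of 10 or more in all libraries, 18579 with 13 libraries or more, 15260 with the 12 wild-type libraries only, 11489 under 1 Mb, 10318 with 87797 top-scoring pairs kept from each library, and 12125 to 13156 without 1 library. The number of baits was 640 at a score of 10 and 3237 to 3411 without 1 library, and the median distance was 313 kb and 240.0 to 246 kb. Motif density was 21.5 per Mb with 13 libraries or more, 24.4 over 50 kb and 22.8 without both merged libraries. The median SD between conditions was 0.27 to 0.29 without 1 library.

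Members called in the F test numbered 501 and 508 with filters of 2 and 10 libraries, 576 capped at 20, 4 without the trend and 188 to 456 without 1 library. For knockout and wild-type PA2 they numbered 351 with a filter of 10 libraries, 434 capped at 20, 3 without the trend, 299 without both merged libraries, 736 with only the groups compared and 73 to 309 without 1 library. For pinna and PA2 they numbered 256 and 171 with filters of 2 and 10 libraries, 180 capped at 20, 2 without the trend, 152 without both merged libraries, 53 with only the groups compared and 21 to 202 without 1 library. For PA2 and the Hox-negative tissues they numbered 19 and 2 with those filters, 2 capped at 20, 5 capped at 33, 0 without the trend, 2 without both merged libraries, 0 with only the groups compared and 0 to 5 without 1 library. The cause was not tested. With the replicate block, which the labels' numbers allow, 327, 191, 68 and 3 members were called in the 4 comparisons. The deviations of same-numbered libraries from their condition means correlated at -0.028 to 0.163 (21 pairs of libraries), so the numbers were not taken to pair the samples. Single baits can differ from this. That of Cpsf3 and Itgb1bp1 was higher in replicate 2 in 6 of 7 conditions, all but the knockout. Of the named differences, none changed direction under any alternative.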
